A study of Mus musculus with 6 samples.

Results

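The SMARC, ARID and CHD genes, called remodeler genes here, mostly encode ATP-dependent chromatin remodelers or their subunits, though 7 ARID genes do not. They were chosen by name, as the protein-coding genes of the deposited table whose symbol starts with Smarc, with Arid and a digit from 1 to 5, or with Chd and a digit from 1 to 9. The choice took 33 of the 56748 genes in the table, of which 32 had reads in at least 1 library. Footprints of translating ribosomes (Ribo-seq) had been sequenced from mouse Lin-c-Kit+ cells, a gate that holds stem and progenitor cells and that the labels call hematopoietic stem cells, in 3 WT libraries and 3 Mov10 knockout libraries. All 6 libraries came from mice that had received 4.5 Gy of ionizing radiation 12 days earlier, so both groups were irradiated and neither is an untreated control. Mov10 is an RNA helicase that binds mRNA. The labels state neither the age of the mice, nor the deleted part of Mov10, nor the cells that carry the deletion. They also do not say that each library is from its own mouse, and p-values then measure only the spread between these libraries, which may be technical.

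Chromatin remodelers use ATP to slide, eject or exchange nucleosomes, and so open or close promoters and enhancers. The SWI/SNF complexes, called BAF in mammals, are built around either of the alternative ATPases BRG1, encoded by Smarca4, or BRM, encoded by Smarca2, with a shared core and an ARID subunit that distinguishes their forms. The ISWI enzymes space nucleosomes, and the CHD enzymes carry chromodomains that read histone tails, with CHD3, CHD4 and CHD5 serving as the alternative ATPases of the histone deacetylase complex NuRD. In blood formation, mouse deletions have shown that CHD4 is required by stem cells and BRG1 in erythroid and T cell development.

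The knockout libraries were shallower and more variable than the WT libraries. They held 1118345 to 1352517 reads against 2260348 to 2499634, so that 3 reads correspond to 4.02 to 4.85 normalized reads in the knockout and to 1.84 to 2.04 in WT. Floors of 3 reads cover counting error only. Across genes, WT libraries correlated with each other at Spearman's rho of 0.978 to 0.979 and knockout libraries at 0.867 to 0.869. WT libraries correlated with knockout libraries at 0.858 to 0.866, only slightly below the knockout libraries among themselves. A mean chi-square per gene sets the difference of a pair against sampling noise, and it grows with depth. It separated the genotypes more, at 1.57 to 2.34 between WT libraries, 6.35 to 7.24 between knockout libraries and 23.5 to 28.2 across genotypes. No pair of libraries agreed within sampling noise. Mov10 itself had 110, 106 and 104 normalized reads in WT and 51.0, 89.0 and 46.3 in the knockout, with no overlap of the groups and a log2 fold change of -0.84 (SE 0.27, limma adjusted p = 0.0598). Marker genes checked the labelled cell type. Kit had 1083 to 1115 normalized reads in WT and 1085 to 1157 in the knockout, while Procr and Slamf1, markers of the most primitive stem cells, stayed at or under the 3-read floor in every library.

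Between the genotypes, 8 of the 32 tested remodeler genes differed, in both directions. Chd4, Smarca4, Chd2 and Chd7 were higher, by 1.53-fold to 2.24-fold, and Smarca2, Smarcb1, Chd6 and Arid5b were lower, by 1.68-fold to 2.52-fold. Within the BAF complex, the alternative ATPases moved in opposite directions, Smarca4 up and Smarca2 down. The test was limma on log2(normalized reads + 1), fitted over the 17114 genes whose mean reached 1 normalized read, and the threshold was an adjusted p (Benjamini-Hochberg) under 0.05. The remaining 24 tested genes were not called, with adjusted p from 0.0591 to 0.977, and Arid3c, listed at 0 in all 6 libraries, was not tested. A footprint count reflects both the amount of an mRNA and its translation, and RNA-seq was not analysed here. In these bulk samples, fewer cells of a type and less RNA per cell cannot be told apart.

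The share of the genes that was called was close to that of the whole table. The 8 calls are 25.0% of the tested remodeler genes, beside 21.2% of all genes tested, and the 4 calls in each direction stand beside 10.3% of all genes called higher and 10.9% called lower. Scaling the libraries by their totals instead turned the split of all calls from 1757 higher and 1871 lower to 1285 higher and 2887 lower. Among abundant genes, whose mean reached 50 normalized reads and which were fitted alone, 11 of 28 remodeler genes were called (39.3%), 5 higher and 6 lower, where 42.7% of all such genes were called, 24.3% higher and 18.4% lower. The knockout and WT libraries did not overlap for 16 of the 32 genes, 8 higher and 8 lower, beside 39.8% of all genes tested. The median log2 fold change was -0.03 for the 32 genes and -0.17 for all genes tested. Among the abundant genes it was -0.05 for the 28 remodeler genes and 0.01 for all. In the authors' deposited table, 8 of the genes had an adjusted p under 0.05, and edgeR on the recovered reads called 9, which included all 8 called here.

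**Figure D1:**
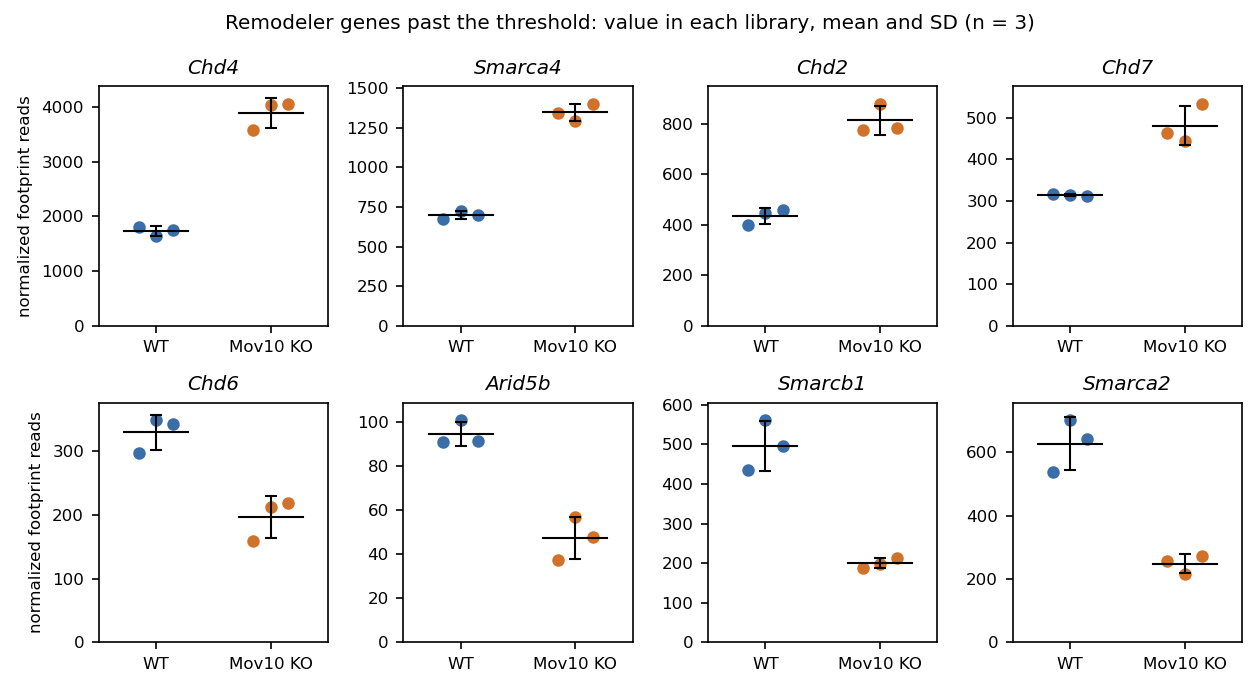
Normalized footprint reads (y axis, linear from 0) of the 8 called genes in the 3 WT libraries (blue) and the 3 Mov10 knockout libraries (orange), with the mean as a horizontal line and the SD as bars. For each gene the knockout points lie entirely above or entirely below the WT points, as for Chd4, at 1640.4 to 1812 in WT and 3575 to 4059 in the knockout.

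The alternative ATPases of the BAF complex were both called. Smarca4 (ENSMUSG00000032187, GRCm39 chromosome 9, 21527465 to 21615526, plus strand) had 675, 725 and 699 normalized reads in the WT libraries and 1345, 1296 and 1402 in the knockout libraries. The groups lay far apart, and the means of 699.9 ± 25.1 and 1348 ± 53.3 (SD, n = 3) differed 1.93-fold, a log2 fold change of 0.94 (SE 0.07, limma adjusted p = 7.14e-05). Smarca2 (ENSMUSG00000024921, chromosome 19, 26582450 to 26755722, plus strand) went the other way, with 538, 701 and 643 normalized reads in WT and 257, 215 and 273 in the knockout. Its highest knockout library held less than its lowest WT library, and the mean was 2.52-fold lower, with a log2 fold change of -1.33 (SE 0.14, limma adjusted p = 0.000394).

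Set against each other within a library, Smarca4 supplied 55.6%, 50.8% and 52.1% of the reads of the pair in WT and 83.9%, 85.8% and 83.7% in the knockout. The Smarca4 share was thus higher in every knockout library than in any WT library, with means of 52.9% in WT and 84.5% in the knockout and a difference of 31.6 percentage points. Per kilobase of gene model, Smarca4 had 108 normalized reads and Smarca2 44.0 in WT, and 208 and 17.4 in the knockout. A share within a library does not depend on how the libraries are scaled to each other. The pair held 1869 to 2325 reads in a WT library and 934 to 1195 in a knockout library, and the 95% Wilson interval of the first WT share ran from 53.4% to 57.9%, which covers counting error only. An exact two-sided permutation test gave p = 0.1, which is the smallest that 3 against 3 libraries allow, and 0.22 after Benjamini-Hochberg adjustment over the 11 paralog shares computed.

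Among the 7 core subunits of BAF, Smarcb1 was the only call. It encodes the SNF5 subunit, which grips the nucleosome opposite the ATPase and is a tumour suppressor in humans. Smarcb1 (ENSMUSG00000000902, chromosome 10, 75732603 to 75757451, minus strand) had 434, 561 and 495 normalized reads in WT and 189, 199 and 213 in the knockout. The 3 knockout libraries lay close together and well below WT, and the mean was 2.48-fold lower, with a log2 fold change of -1.30 (SE 0.13, limma adjusted p = 0.000283).

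The scaffold subunits Smarcc1 and Smarcc2, around which the core assembles, were not called. Smarcc2 had 286, 266 and 298 normalized reads in WT and 397, 332 and 355 in the knockout, with no overlap and a limma adjusted p of 0.0660. Smarcc1 had 368, 349 and 399 in WT and 422, 642 and 433 in the knockout, where replicate 2 stood above the others (limma adjusted p = 0.126). The gene Dhx30 lies over Smarcc1 on the opposite strand with 31.7% of its mean level over all 6 libraries. The sources used here do not say whether the counting used the strand. Smarcd1, Smarcd2 and Smarcd3 are alternative subunits that contact transcription factors. Smarcd1 and Smarcd2 overlapped between the groups, with means of 80.9 and 114.0 normalized reads in WT and 73.0 and 98.0 in the knockout. Smarcd3 had 7, 12 and 8 reads in WT and 2, 0 and 1 in the knockout, too few for a firm value (limma adjusted p = 0.132). Smarce1, which bends DNA through an HMG domain, had means of 75.0 and 72.6 with overlapping groups.

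The ARID subunits that define the forms of BAF were not called. Arid1a and Arid1b are alternatives in canonical BAF, and Arid2 belongs to the form called PBAF. Arid1a averaged 410.9 ± 21.9 normalized reads (SD, n = 3) across WT and 455.7 ± 30.1 across the knockout, with a log2 fold change of 0.15 and a 95% interval from -0.08 to 0.37. Arid1b was at 218.4 ± 16.6 and 173.1 ± 62.9, with a log2 interval from -0.97 to 0.17, wider than that of Arid1a. Arid2 was at 354.4 ± 13.1 and 312.6 ± 11.7, with a log2 interval from -0.41 to 0.05. The knockout libraries lay just above WT for Arid1a and just below for Arid2, by less than the test resolved.

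**Figure D2:**
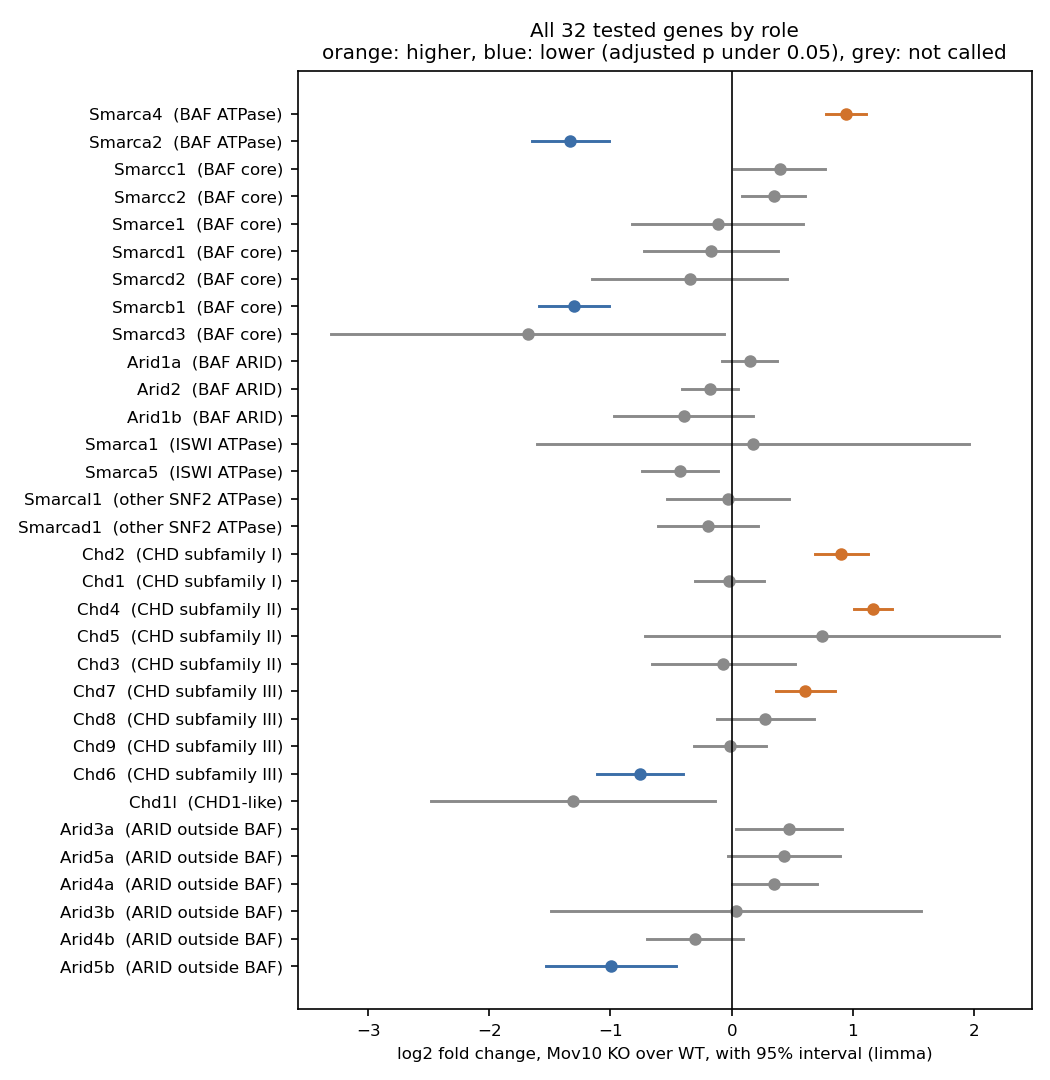
Log2 fold change, Mov10 knockout over WT, with its 95% interval (limma, x axis) for the 32 tested genes, grouped by role; orange and blue mark genes called higher and lower, grey those not called. Smarca4 at 0.94 and Smarca2 at -1.33 lie on opposite sides of 0, and the widest intervals belong to genes with few reads such as Smarcd3 and Smarca1.

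Among the 10 CHD genes, 3 rose and 1 fell, beside 10.3% of all genes called higher and 10.9% called lower. All but Chd5 had a mean of at least 50 normalized reads, and 24.3% of all genes of that abundance were called higher and 18.4% lower. Chd4, the main ATPase of NuRD, was the most abundant of all 33 genes per kilobase of gene model, at 216 normalized reads per kb in WT and 485 in knockout libraries, ahead of Smarca4 at 108 and 208. Chd4 (ENSMUSG00000063870, chromosome 6, 125072944 to 125107554, plus strand) had 1812, 1640.4 and 1746 normalized reads in WT and 3575, 4032 and 4059 in the knockout. The groups were widely separated, with means of 1733 ± 86.6 and 3889 ± 272 (SD, n = 3), a 2.24-fold difference and a log2 fold change of 1.16 (SE 0.07, limma adjusted p = 2.04e-05). Cyclic loess, which rescales genes by abundance, lowered the log2 fold changes of the 4 higher genes, Chd4 to 0.52, Smarca4 to 0.52, Chd2 to 0.58 and Chd7 to 0.38, and each stayed past the threshold (for Chd4, adjusted p = 0.000913). Over all 18 alternatives the adjusted p of Chd4 lay between 3.63e-55 and 0.0147.

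The other NuRD ATPases gave no such difference. Chd3 had 155, 155 and 149 normalized reads in WT and 96.6, 154 and 208 in the knockout, which straddle WT, with a log2 fold change of -0.07 and a 95% interval from -0.66 to 0.52. Chd5, mainly known from neurons, stayed below 5 normalized reads in every library. Of the reads of the 3 genes together, Chd4 took 92.1%, 91.4% and 92.0% in WT and 97.3%, 96.3% and 95.02% in the knockout, while the mean share of Chd3 was 8.11% in WT and 3.72% in the knockout. Both shares separated the groups, with an exact permutation p of 0.1 (0.22 adjusted). They are near complements, because Chd5 had few reads, and so are not separate results.

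Chd2, of the subfamily whose members act at transcribed genes, was 1.87-fold higher. Chd2 (ENSMUSG00000078671, chromosome 7, 73076386 to 73191578, minus strand) had 399, 445 and 459 normalized reads in WT and 776, 878 and 784 in the knockout. The groups did not approach each other, and the log2 fold change was 0.90 (SE 0.10, limma adjusted p = 0.000449). Its paralog Chd1, known for binding methylated histone H3 at active promoters, had 343, 338 and 370.0 in WT and 335, 401 and 307 in the knockout, which overlap (log2 fold change -0.02, 95% interval from -0.30 to 0.27). Chd1 accordingly took 46.2%, 43.1% and 44.6% of the reads of the pair in WT and 30.2%, 31.4% and 28.1% in the knockout (exact permutation p = 0.1, 0.22 adjusted).

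Chaserr, a long non-coding RNA known in mouse as a repressor of Chd2 in cis, is annotated on the same strand at chromosome 7, 73189549 to 73208143, and overlaps the start of the Chd2 gene. It was chosen after its values were seen. Chaserr had 134, 164 and 150 normalized reads in WT and 26.8, 37.2 and 49.2 in the knockout, so it was low in all 3 libraries in which Chd2 was high. Its log2 fold change was -1.995 (SE 0.26, limma adjusted p = 0.00139), and it passed the threshold in 17 of 17 alternatives. Its mean level over all 6 libraries was 15.0% of that of Chd2. By genotype, the means of Chaserr and Chd2 were 149.6 and 434.5 in WT and 37.7 and 813.0 in the knockout. The sources used here do not say how the authors assigned reads of the overlap. The part of Chaserr in the Chd2 result was not tested.

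The third CHD subfamily moved both ways. Chd7, whose human gene is mutated in CHARGE syndrome (ENSMUSG00000041235, chromosome 4, 8690406 to 8867659, plus strand), had 316, 314 and 313 normalized reads in WT and 464, 445 and 534 in the knockout. All knockout libraries were above WT, and the mean was 1.53-fold higher, with a log2 fold change of 0.61 (SE 0.11, limma adjusted p = 0.00547). Chd6 (ENSMUSG00000057133, chromosome 2, 160788898 to 160950995, minus strand) had 297, 348 and 342 normalized reads in WT and 158, 212 and 218 in the knockout. The groups did not overlap, and the mean was 1.68-fold lower, with a log2 fold change of -0.75 (SE 0.16, limma adjusted p = 0.0117).

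Neither of these calls held in every alternative. Chd7 missed the threshold without the variance trend, at an adjusted p of 0.0862, and its adjusted p over the alternatives lay between 0.000102 and 0.0862. Chd6 missed it without the trend and without WT replicate 2 or WT replicate 3, at 0.0783, 0.0753 and 0.0750, in a range that starts at 0.000596. Without WT replicate 2 or 3 its log2 fold change was -0.71 or -0.72, near the main value. The calls over all genes then fell from 3628 to 1284 or 1239. Chd8, which binds beta-catenin and is linked to autism in humans, had 338, 331 and 333 normalized reads in WT and 543, 374 and 327 in the knockout, with replicate 1 alone far above WT (limma adjusted p = 0.305). Chd9 had means of 279.4 and 277.2 and a log2 interval from -0.31 to 0.28. Chd1l, an enzyme switched on by poly(ADP-ribose) at damaged DNA, had 160, 134 and 118 in WT and 109, 21.0 and 69.5 in the knockout, with no overlap but a spread in the knockout that kept it above the threshold (limma adjusted p = 0.107).

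As a share of all reads in a library, the CHD genes together went from 0.263% ± 0.00440 in WT to 0.366% ± 0.0132 in the knockout (SD, n = 3), the SMARC genes from 0.214% ± 0.0109 to 0.186% ± 0.00778, and the ARID genes from 0.122% ± 0.00496 to 0.107% ± 0.00521. Without Chd4, the other 9 CHD genes held 0.151% ± 0.00525 in WT and 0.152% ± 0.00309 in the knockout. All 33 genes together held 0.600% ± 0.0180 in WT and 0.658% ± 0.0158 in the knockout, and without Chd4 they held 0.487% ± 0.0206 and 0.444% ± 0.00427.

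The ISWI and other SNF2 ATPases were not called. Smarca5, the ISWI enzyme SNF2H, had 282, 255 and 242 normalized reads in WT and 172, 192 and 216 in the knockout, entirely below WT. It missed the threshold narrowly, with a log2 fold change of -0.43 (SE 0.14, limma adjusted p = 0.0591), and its adjusted p over the alternatives lay between 0.0113 and 0.221, past the threshold in 4 of 18. Its paralog Smarca1 had at most 5.79 normalized reads in any library, so nearly all reads of the pair were from Smarca5. Smarcad1, which acts at DNA ends and in heterochromatin, had means of 176.6 and 154.4 normalized reads, and Smarcal1, which remodels stalled replication forks, had 120.6 and 120.2, both with overlapping groups.

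Among the ARID proteins outside BAF, Arid5b was the only call of the 6 tested. It encodes a DNA-binding cofactor of a histone demethylase, and variants of the human gene are associated with childhood leukaemia. Arid5b (ENSMUSG00000019947, chromosome 10, 67928350 to 68114570, minus strand) had 90.9, 101 and 91.3 normalized reads in WT and 37.5, 56.6 and 47.8 in the knockout. The groups did not overlap, and the mean was 1.99-fold lower, with a log2 fold change of -0.998 (SE 0.24, limma adjusted p = 0.0196). Leaving out WT replicate 1, 2 or 3 raised the adjusted p to 0.0870, 0.108 or 0.0923, in a range over the alternatives that starts at 0.00855.

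Its paralog Arid5a, known in mouse to stabilise cytokine mRNAs, had 77.3, 71.8 and 72.9 normalized reads in WT and 97.9, 120 and 85.4 in the knockout, above WT in every library but not called (limma adjusted p = 0.174). Arid3a, a factor of B cells and blood stem cells, had means of 112.8 and 156.7 with overlapping ranges (limma adjusted p = 0.118), and Arid3b had means of 21.3 and 28.2 with knockout values from 6.47 to 40.5. Arid4a and Arid4b bind the retinoblastoma protein and work with the SIN3 deacetylase complex. Arid4a had 345, 365 and 341 in WT and 532, 351 and 479 in the knockout, and its share of the pair's reads, 58.6% and 68.6% on average, overlapped between the groups. Arid4b had means of 248.2 and 203.8, also with overlap.

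**Figure D3:**
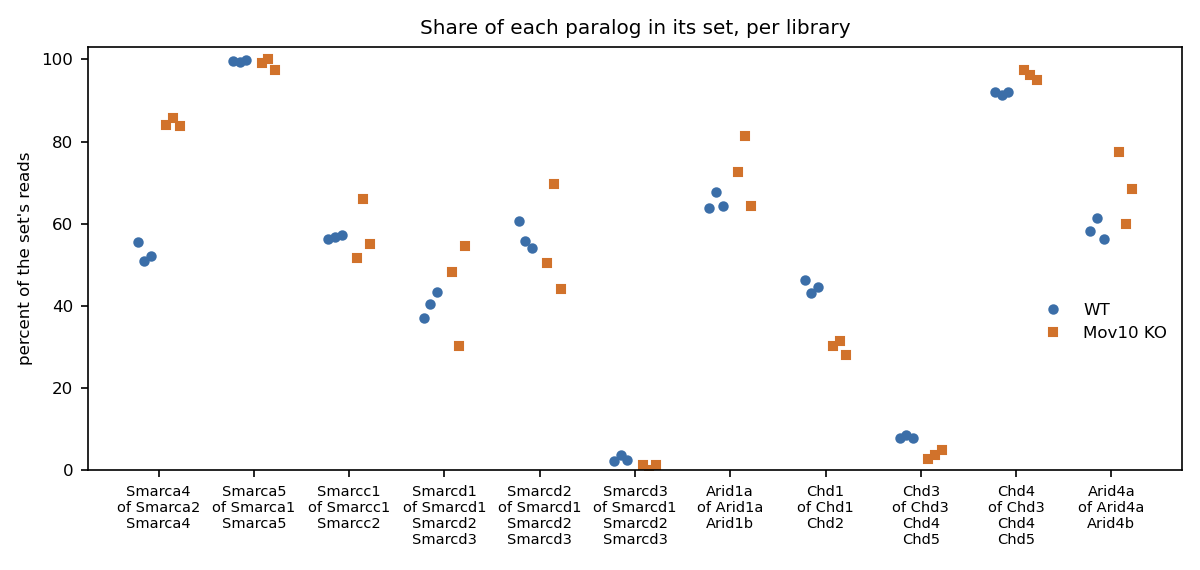
Share of each paralog in the reads of its set (percent, y axis) in each WT library (blue circles) and Mov10 knockout library (orange squares). The 11 shares are plotted, 5 of which separate the groups, with the widest gap for Smarca4, at 50.8% to 55.6% in WT and 83.7% to 85.8% in the knockout. The separated shares of Chd3 and Chd4 are near complements and not separate results. That of Smarcd3 rests on 2, 0 and 1 knockout reads. Shares were not computed for other genes, and the levels of 39.8% of all genes tested separated the groups.

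Partners of these enzymes were described through 6 lists of 78 related genes, 77 of which were tested: 19 were called higher, 11 lower and 47 not. All counts of these lists stand beside 10.3% of all genes called higher and 10.9% called lower, or 24.3% and 18.4% among genes whose mean reached 50. Of the 15 tested remaining subunits of BAF, 4 were higher and 4 lower. Bcl7a, a small accessory subunit, had 168, 193 and 182 normalized reads in WT and 339, 429 and 323 in the knockout. Pbrm1, the polybromo subunit that marks PBAF, had 336, 330 and 334 in WT and 727, 474 and 631 in the knockout. Dpf2, a reader of acetylated histones in canonical BAF, had 236, 236 and 225 in WT and 405, 323 and 383 in the knockout. The remaining higher call, Bcl7b, lies outside the naming rule. Brd7, a bromodomain subunit of PBAF, fell from 147, 145 and 155 to 49.6, 17.8 and 50.6, and Bicral, of the non-canonical form, from 54.5, 49.1 and 54.5 to 5.36, 0 and 8.68. Members of PBAF therefore moved in both directions. None of the 4 lower BAF calls (Brd7, Bicral, Ss18 and, outside the naming rule, Actl6a) passed the threshold when any WT library was left out.

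Of the 9 partners of ISWI, 5 were higher and none lower, beside 10.3% and 10.9% of all genes, and their median log2 fold change was 0.36, beside -0.17 for all genes tested. Baz1a, the partner of SNF2H in the ACF complex, had 924, 921 and 929 normalized reads in WT and 2029, 2172 and 1786 in the knockout, a 2.16-fold difference (log2 fold change 1.10, SE 0.08). Baz1b was 1.64-fold higher, and Cecr2, a bromodomain partner with few reads, was 4.00-fold higher, from 37.7, 45.4 and 41.6 to 198, 131 and 169. Rsf1 and Bptf, outside the naming rule and chosen after their values were seen, were 1.45-fold and 1.29-fold higher and missed the threshold with library totals and with cyclic loess. Both also missed it without the variance trend and when any WT library was left out, and so passed in 12 of 18 alternatives. Under cyclic loess 3 of the 9 were higher and 1 lower, and under library totals 3 were higher and 2 lower.

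Of the 12 partners of CHD4 in NuRD, 3 were higher and 2 lower. Rbbp4, a histone chaperone shared with other complexes, had 742, 639 and 691 normalized reads in WT and 1886, 1897 and 2032 in the knockout, 2.81-fold higher (log2 fold change 1.49, SE 0.08). The deacetylase Hdac2 was 2.40-fold higher and Rbbp7 was 1.66-fold higher. Mbd3, which holds NuRD together, had 153, 199 and 166 in WT and 14.8, 59.8 and 76.7 in the knockout, and Mta1 was 1.93-fold lower, and neither Mbd3 nor Mta1 passed when any WT library was left out, nor Mta1 without knockout replicate 3. The subunits of NuRD therefore did not all follow Chd4.

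The 23 subunits of INO80, SRCAP and TIP60, which exchange histone variants, split into 3 higher (Uchl5, Vps72 and Dmap1), 3 lower (Kat5, Trrap and Yy1) and 17 not called. The lower calls of that list numbered 7 with library totals, 6 and 5 without knockout replicate 1 and 3, 1 without the variance trend and 0 when any WT library was left out. Kat5, Trrap and Yy1 passed in 15, 14 and 7 of 18 alternatives. Of 13 other SNF2 proteins, Atrx, which deposits histone H3.3 in heterochromatin, was 1.48-fold higher, Shprh 1.34-fold higher and Hltf 2.79-fold lower. Atrx passed in 16 of 18 alternatives, not under cyclic loess or without the variance trend, Shprh in 8 of 18, and Hltf in 17. Of 5 ARID proteins that are demethylases or their relatives, Kdm5b was 2.20-fold higher and Kdm5a 1.77-fold higher, while Kdm5d fell from 75.3, 63.2 and 74.3 normalized reads to 21.5, 12.9 and 15.9.

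Kdm5d lies on the Y chromosome. Eif2s3y, another Y-linked gene, had 72.1, 77.3 and 70.2 normalized reads in WT and 24.1, 24.3 and 21.7 in the knockout. Xist, which is made from the inactive X chromosome, had 107, 131 and 101 in WT and 288, 433 and 341 in the knockout, and like Eif2s3y, Ddx3y and Uty it was chosen after its values were seen. Ddx3y, at 234 to 254 in WT and 104 to 225 in the knockout, was not called (limma adjusted p = 0.168), nor was Uty (0.132). The labels used here give no sex, and the part of sex in any of these results was not tested.

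**Figure D4:**
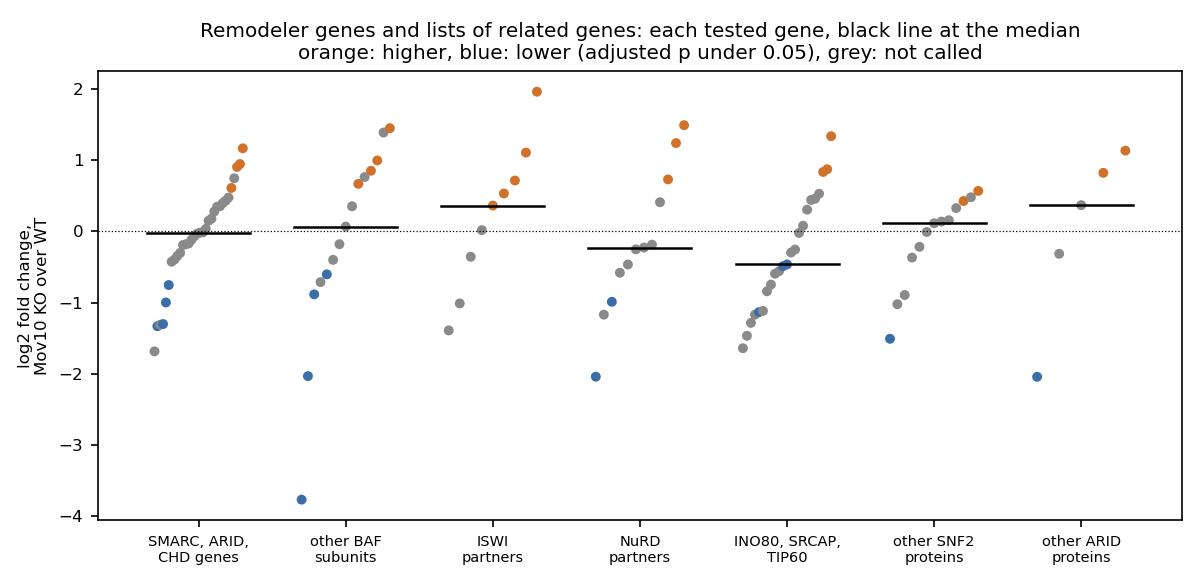
Log2 fold change, Mov10 knockout over WT (y axis), of each tested gene among the 32 SMARC, ARID and CHD genes and the 6 lists of related genes, with a black line at each median; orange and blue mark genes called higher and lower, grey those not called. The medians run from -0.46 for the INO80, SRCAP and TIP60 list to 0.37 for the other ARID proteins, and all lists but the ISWI partners hold calls in both directions.

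Markers of other blood cells moved with the genotype beside all of these results. The summed level of 7 erythroid markers was 677 to 721 normalized reads in WT and 1372 to 1584 in the knockout. In it 3 genes were called higher, Klf1, Epor and Slc4a1, the last at 285 to 336 in WT and 838 to 1025 in the knockout. Alas2 and Hbb-bs went lower, with log2 fold changes of -0.77 and -1.72, and were not called. The 7 B cell markers summed to 238 to 251 and to 570 to 679, with 4 called higher, while Cd79b went lower (log2 fold change -0.63) and was not called. The 9 neutrophil markers summed to 30974 to 36903 and to 46398 to 48356, with 4 called higher and 3 lower. Without Mpo, the most abundant of them, left out after the values were seen, the other 8 summed to 19520.3 to 22669.8 in WT and 17549 to 18501 in the knockout, which is the opposite direction. The 5 eosinophil, basophil and mast cell markers summed to 12685 to 15723 and to 19269 to 21191, with 4 higher. The 4 megakaryocyte markers summed to 452 to 521 and to 553 to 858, with Gp1bb at 0 throughout. The 3 macrophage markers summed to 474 to 552 and to 597 to 691, while Cd68 among them went lower (log2 fold change -1.39) and was not called. The 10 stem and progenitor markers, at 1383 to 1404 and 1349 to 1425, and the 6 T cell markers, at 63.8 to 86.3 and 66.6 to 92.5, overlapped between the groups. The part of these cells in the remodeler results was not tested.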

How the data were processed

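The genes and lists were chosen with earlier results of these data known. Footprints of 24 to 36 nt were isolated after cycloheximide and RNase I, per the labels' protocols, and the build is GRCm39, per the submitters' processing notes; the aligner, counter, annotation and strand setting were not stated in any source used here. The authors deposited signal values, which are reads scaled by a size factor, since over 99.9% of values above 0 are whole multiples of 1 step (within 0.05 of a read). The log2 fold changes and p-values deposited by the authors come from a test that is not stated. Because the unit is a scaled signal, limma 3.58.1 (R 4.3.3) was used on log2(value + 1), with a trended variance and no term but genotype, over genes whose mean reached 1. This fit gives each gene 1 variance for both genotypes. Genes whose mean reached 50 had a median coefficient of variation of 7.61% in WT and 21.5% in the knockout. The 5 genes off the step (none a remodeler gene) were left out. Recovered reads entered edgeR 4.0.16 and DESeq2 1.42.0 as alternatives, which called 3213 and 3300 genes. Paralog shares used exact two-sided permutation tests over 20 regroupings. The genes named are every SMARC, ARID and CHD gene, Mov10 and, per list and direction, up to 3 called genes with the smallest p. The fit was also run on simulated counts with the same dispersion in both groups. That run does not cover the larger spread of the knockout libraries. Figures used matplotlib 3.10.9. Of the erythroid marker list, 1 gene is not reported here and is left out of its counts and sums.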

Additional observations from a re-analysis of the deposited data

How the results depend on the processing

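Of the 8 called genes, Smarca4, Smarca2, Smarcb1, Chd2 and Chd4 passed the threshold in 18 of 18 alternatives, Chd7 in 17, and Chd6 and Arid5b in 15, and none of the 8 changed sign in any alternative. All genes called numbered 3628, and 1239 to 4585 when 1 library was left out, lowest without any of the WT libraries (1449, 1284 and 1239). They rose to 4585, 4447 and 4494 without knockout replicate 1, 2 or 3. With 1 library left out, the lower remodeler calls ranged from 2 to 5 (2 without WT replicate 2 or WT replicate 3) and the higher ones from 4 to 6. In the other alternatives the lower calls ranged from 3 (no variance trend) to 6 (library totals, cyclic loess, a minimum mean of 50) and the higher ones from 3 (no variance trend) to 5. Each alternative has a median log2 fold change over its own tested genes. Beside the main fit, that median differed by -0.22, 0.17, 0.18 and 0.39 for library totals, cyclic loess, a minimum mean of 50 and DESeq2. It differed by -0.13 and 0.12 for a pseudocount of 0.1 and edgeR. The minimum mean of 50, DESeq2 and edgeR tested 6307, 28131 and 10891 genes, against 17114. Their differences include that change of genes, and the minimum of 50 alters no fold change. Smarca5, Smarcc2, Chd1l, Arid2 and Arid4a were not called but passed in 4, 4, 3, 2 and 1 of 18. Same-numbered WT and knockout libraries did not deviate together (correlations of 0.0119, 0.0128 and -0.00617), and the main fit did not pair them. These correlations cannot show whether same-numbered libraries were handled together. The replicate block called 3245 genes, with 4 remodeler genes higher and 5 lower. Depth limits the 5 genes with a mean under 50, among them Smarcd3, Chd5 and Smarca1. With 3 libraries per genotype, an exact two-sided permutation p cannot fall under 0.1.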

Other observations

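The remodeler genes varied more between knockout than between WT libraries. Over the 28 genes whose mean reached 50 normalized reads, the median coefficient of variation was 7.00% in WT, where counting alone gives 4.80%, and 16.4% in the knockout, where counting gives 8.53%. It was larger in the knockout for 23 of the 28. All genes of that abundance had medians of 7.61% and 21.5%. Arid2 and Smarca4 were among the steadiest in the knockout, at 3.73% and 3.96%, while Smarcd2 was at 49.2% and Chd1l at 66.1%. Chd7 and Chd8 were the steadiest in WT, at 0.567% and 1.17%, which is below what counting alone gives for their reads.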
